A study of Mus musculus with 6 samples.

Results

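The aquaporins are a family of membrane channels, and 9 of their genes (Aqp1, Aqp2, Aqp3, Aqp4, Aqp5, Aqp7, Aqp8, Aqp9 and Aqp11) were followed in ectopic endometrial lesions of mice with and without donor Dnmt3a. They were taken by name from the table of raw counts, which lists 56884 genes, and 8 of the 9 had enough counts to be tested. Each channel lets water cross the membrane along an osmotic gradient. Aqp3, Aqp7 and Aqp9 also pass glycerol and are called aquaglyceroporins, and Aqp11 is a distant member found largely on membranes inside the cell. In the uterus, aquaporins are known for water movement in the luminal and glandular epithelium, the stroma and the vessels, under the influence of ovarian steroids.

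The lesions grew from uterine tissue of female donors that were 8 weeks old. Control (WT) donors were Dnmt3a f/f, with both alleles floxed and intact, and knockout (KO) donors were Dnmt3a f/f:PR-Cre/+, in which Cre is made in cells that express the progesterone receptor. Wild-type recipients with an estrogen pellet received the tissue in both groups, so cells of the host in a lesion carried no Cre and kept Dnmt3a. All lesions thus shared the floxed donor alleles, the estrogen and the wild-type host. Only KO donors carried PR-Cre, so its presence and the loss of Dnmt3a cannot be told apart. There were 3 WT and 3 KO lesions from separate donors, each sequenced as 1 bulk library of messenger RNA. The sample labels give 4 weeks as the time and injection of fragments into the peritoneal cavity, whereas the methods describe sutured tissue and an earlier day. Values of the 3 lesions of a group are given throughout in the order of replicates 1, 2 and 3.

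Library totals ran from 45370342 to 57239184 counts. Dnmt3a itself was at 43.9 to 52.7 CPM (counts scaled to library size with TMM factors) in WT and 30.3 to 36.2 CPM in KO lesions, with no overlap (log2 fold change -0.57, edgeR, adjusted p = 0.321). Endometrial epithelial keratin Krt8 (287 to 618 CPM) was present in every library, while the gland marker Foxa2 was at 2.62 CPM or less. Several libraries held markers of other tissues. The summed level of 11 skeletal muscle genes was 30144 and 32241 CPM in WT replicates 1 and 3 and at most 18.1 CPM in the other 4 libraries. WT replicate 2 had 9845 CPM of 7 neutrophil genes, against 37.2 to 479 CPM elsewhere, and WT replicate 3 had 5050 CPM of 6 pancreatic acinar genes, against 7.19 to 16.004 CPM elsewhere. KO replicate 3 had the highest adipocyte sum, 6744 CPM, against 908 to 4438 CPM in the others.

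To determine which water channels a lesion held, levels were divided by exon length and given as CPM per kb. In WT lesions Aqp1 was the most abundant at 87.8 ± 11.3 CPM per kb (SD, n = 3), followed by Aqp5 at 19.0 ± 13.6, Aqp3 at 10.7 ± 17.8 and Aqp4 at 4.19 ± 1.33 CPM per kb. Aqp8, Aqp7 and Aqp9 had means between 1.47 and 2.59 CPM per kb, and Aqp11 and Aqp2 were at 0.103 and 0.0512 CPM per kb. In this order, Aqp1 did not overlap with Aqp5, nor Aqp9 with Aqp11, while all other neighbours overlapped between libraries. In KO lesions the order was led by Aqp5 at 96.8 ± 51.2 CPM per kb (SD, n = 3), followed by Aqp1 at 55.9 ± 36.5 and Aqp8 at 14.8 ± 10.2 CPM per kb. Next came Aqp7 at 2.46 ± 3.03 CPM per kb, and the remaining 5 genes had means of 0.619 CPM per kb or less. Here Aqp5 and Aqp1 overlapped, Aqp1 lay above Aqp8 in every pairing of libraries, and the lower neighbours overlapped except Aqp3 and Aqp2.

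**Figure D1:**
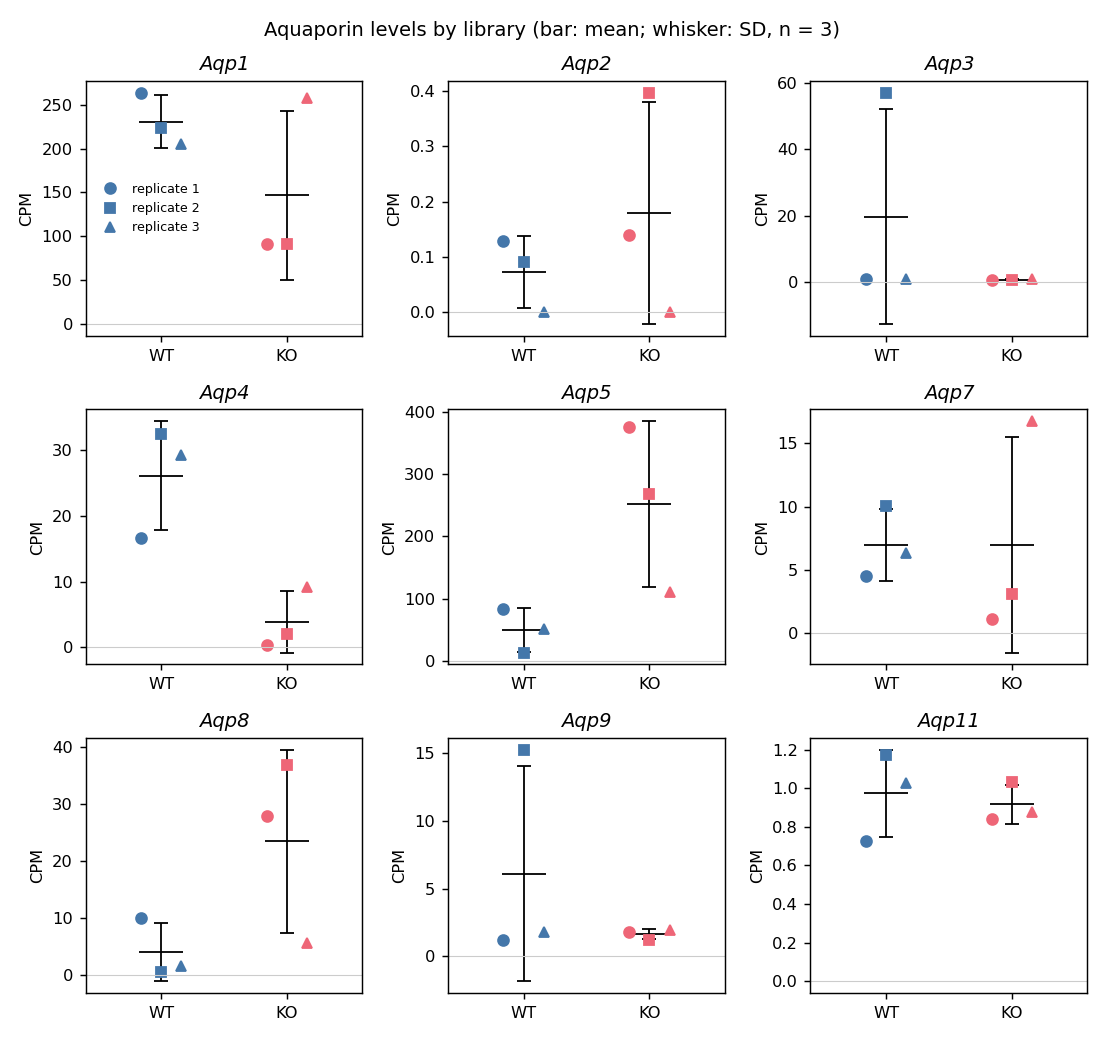
Level of each of the 9 aquaporin genes in CPM (y axis, a separate scale for each gene) in WT and KO lesions, with 1 symbol for each replicate, the mean as a bar and the SD (n = 3) as whiskers. All 3 KO lesions lay above the WT lesions for Aqp5 and below them for Aqp4, and a single library, WT replicate 2, held the high value of Aqp3 and of Aqp9.

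In the comparison of KO with WT lesions, Aqp5 was higher and Aqp3 and Aqp4 were lower in KO lesions at the study's threshold, which asks for p under 0.05 before adjustment and a log2 fold change past 1 in either direction. These calls came from edgeR's quasi-likelihood test, fitted over all 18177 genes with enough counts. That is 1 of 8 members higher, beside 3.10% of all genes tested, and 2 of 8 lower, beside 5.85%. In either direction it is 3 of 8, beside 8.96%. The groups did not overlap for 2 of the 8 members, Aqp4 and Aqp5, beside 19.4% of all genes tested. Without the limit on fold change the same 3 members were under 0.05, beside 14.7% of all genes. After Benjamini-Hochberg adjustment, 0 members were past 0.05 with edgeR (1 gene in all, or 0.00550%), 1 (Aqp5, adjusted p = 0.0268) with DESeq2's Wald test and 0 with limma voom. The median log2 fold change of the 8 members was -0.37, against 0.01 over all genes. In bulk tissue, fewer cells of a type and less RNA per cell cannot be told apart.

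**Figure D2:**
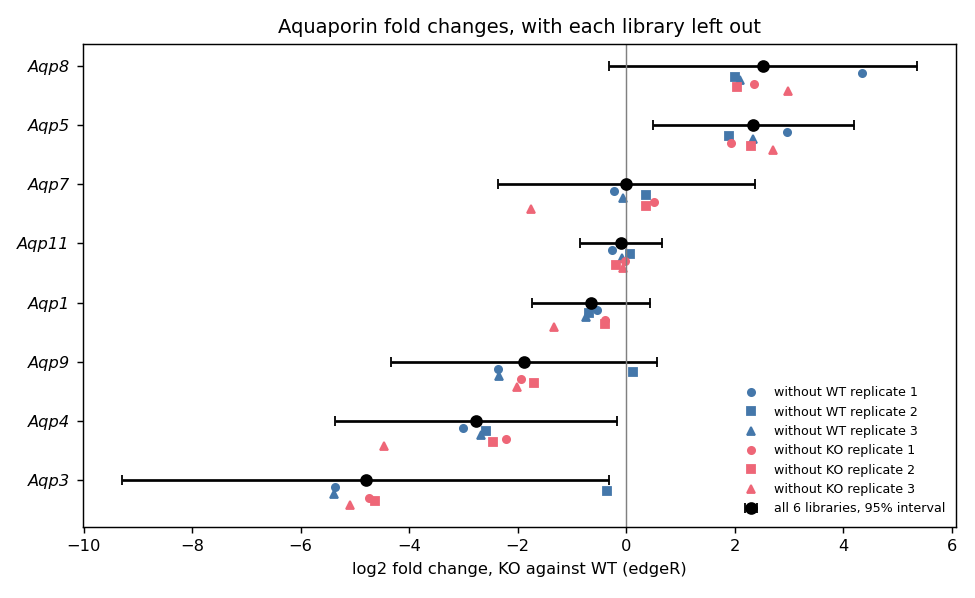
Log2 fold change of KO against WT (x axis) for the 8 tested aquaporins from edgeR, with the estimate from all 6 libraries and its 95% confidence interval in black and the estimates with 1 library left out as coloured symbols. The intervals of Aqp3, Aqp4 and Aqp5 lay to 1 side of 0, and the estimate of Aqp3 moved from -4.80 to -0.35 without WT replicate 2.

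Aqp5, the water channel of gland and uterine epithelium, was 5.08 times as high in KO as in WT lesions. Its gene (ENSMUSG00000044217.18) lies on chromosome 15 of GRCm38 from 99590782 to 99594829. The WT lesions held 84.0, 13.3 and 51.2 CPM and the KO lesions 376, 269 and 111 CPM. The groups did not overlap (beside 10.7% of all genes with every KO above every WT library), and the lowest KO lesion was closer to the highest WT lesion than to the other KO lesions. The means were 49.5 ± 35.4 CPM in WT and 252 ± 133 CPM in KO (SD, n = 3). On the log2 scale the difference was 2.35 ± 0.76 (SE), with p = 0.0212 before and p = 0.328 after adjustment by edgeR and p = 0.1 by the exact two-sided permutation test, whose p cannot be smaller with groups of 3. The call was lost without WT replicate 3 (2.34, adjusted p = 0.438) and without KO replicate 1 (1.94, adjusted p = 0.633), and it was kept at 2.96 without WT replicate 1 (edgeR, adjusted p = 0.435).

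Markers of the endometrial epithelium did not pass the threshold. Of 8 such markers, 0 were past it, although 7 had a positive log2 fold change, with a median of 0.53. Their summed level, most of it the secreted iron-binding protein Ltf, was 11463 to 20683 CPM in WT and 17164 to 36500 CPM in KO lesions. Relative to the mean log2 level of these markers, a measure chosen after the data were seen, Aqp5 was at -0.94, -3.55 and -2.36 in WT and at 0.33, -0.35 and -0.17 in KO replicates 1, 2 and 3. The KO lesions thus lay above the WT lesions on this scale too, by 2.21 on average. Each marker weighs the same in this mean, also Foxa2, with 6, 12 and 68 counts in WT and 18, 132 and 0 counts in KO lesions. Its low counts pull the mean down, most in KO replicate 3. The part of the markers in the result was not tested beyond this measurement. Over the 6 libraries, the profiles most like that of Aqp5 among 15045 genes were those of Chdh, Slc25a48 and Ntn1. These encode choline dehydrogenase, a mitochondrial carrier and the guidance cue netrin-1, and their centred log2 CPM differed from that of Aqp5 by a root mean square of 0.15, 0.19 and 0.25.

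Aqp8, a channel that also passes ammonia and hydrogen peroxide, had the largest positive log2 fold change of the members but did not pass the test. Its gene (ENSMUSG00000030762.12) lies on chromosome 7 from 123462291 to 123468004. In WT lesions its levels were 9.99, 0.675 and 1.602 CPM, compared with 27.9, 36.8 and 5.61 CPM in KO lesions. KO replicates 1 and 2 were above all WT lesions, and KO replicate 3 was below WT replicate 1. Its log2 fold change was 2.52 ± 1.16 (SE), with a 95% confidence interval from -0.32 to 5.36 (edgeR, p = 0.0731 before and 0.362 after adjustment; exact two-sided permutation test, p = 0.2). Aqp8 was past the study's threshold with DESeq2 (2.50, adjusted p = 0.130), with limma voom (3.03, adjusted p = 0.0981), and with edgeR without WT replicate 1 (4.36, adjusted p = 0.435) or without KO replicate 3 (2.98, adjusted p = 0.209). Relative to the epithelial markers Aqp8 was higher by 2.66 on the log2 scale in KO lesions, with overlap between the groups. Its nearest profiles were those of Lrat, Atp2b2 and Gng4, a retinol-esterifying enzyme, a calcium pump and a G-protein subunit, at root mean squares of 0.17, 0.28 and 0.32.

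Aqp1, the channel of capillary endothelium and red blood cells, was lower in 2 of 3 KO lesions and did not pass the test. Its gene (ENSMUSG00000004655.6) lies on chromosome 6 from 55336432 to 55348555. WT lesions had 264, 223 and 206 CPM, and 91.8, 90.9 and 257 CPM were found in KO lesions. The groups overlapped because KO replicate 3 lay within the range of the WT lesions. The log2 fold change was -0.65 ± 0.45 (SE; edgeR, p = 0.194 before and 0.489 after adjustment; exact two-sided permutation test, p = 0.3). It passed the study's threshold without KO replicate 3 (-1.33, edgeR, adjusted p = 0.112) and with limma voom, which weights libraries by their quality (-1.16, adjusted p = 0.0769).

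Endothelial markers had the same order of libraries at their low end. Summed over 8 genes the WT lesions held 607, 663 and 544 CPM and the KO lesions 347, 248 and 698 CPM. Of the 8 genes, 0 passed the threshold and 7 had a negative log2 fold change (median -0.46). Relative to their mean log2 level, Aqp1 was at 2.33, 1.91 and 2.03 in WT and at 1.46, 1.96 and 2.02 in KO replicates 1, 2 and 3, with overlap. Red cell genes were lowest in KO replicates 1 and 2 (80.9 and 54.5 CPM summed over 7 genes) and highest in KO replicate 3 (727 CPM), with 101 to 621 CPM in WT. The part of these cell types in the level of Aqp1 was not tested. The profiles nearest to Aqp1 were those of Mgp, Hfe and Gucy1a1, at root mean squares of 0.10, 0.11 and 0.12. They encode an inhibitor of calcification, an iron-homeostasis protein and a subunit of the nitric oxide receptor.

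**Figure D3:**
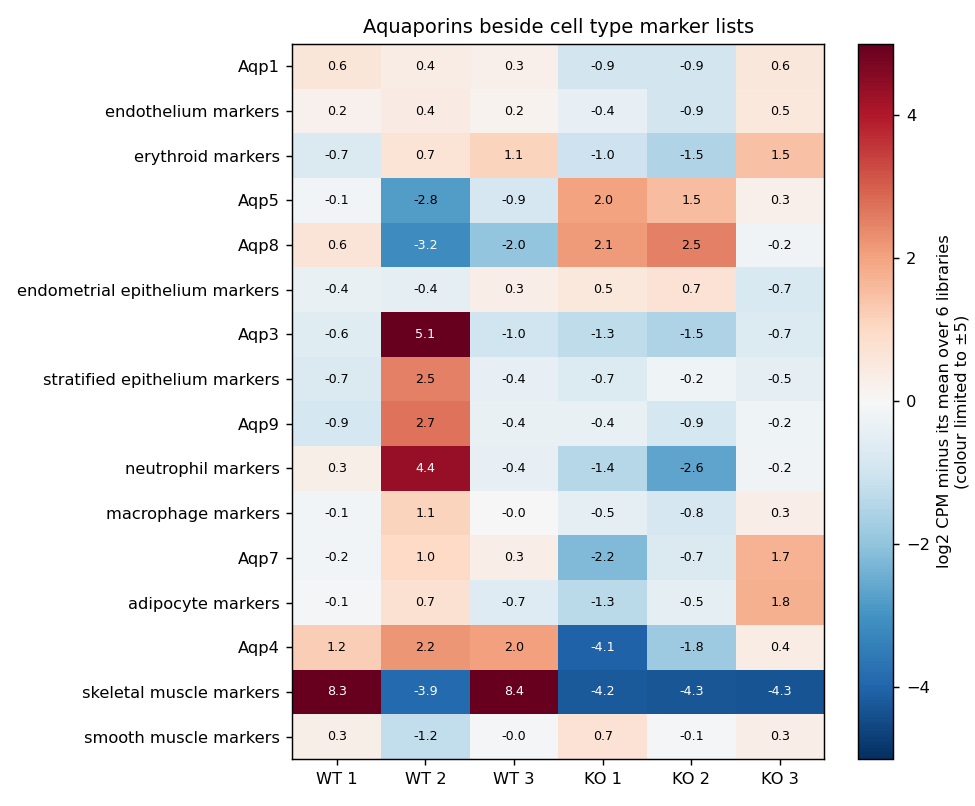
Log2 CPM of aquaporins and mean log2 CPM of cell type marker lists (y axis) in each of the 6 libraries (x axis), each as the difference from its own mean over the libraries, written in the cell and shown as colour. Aqp1 and the endothelial markers were both lowest in KO replicates 1 and 2, and WT replicate 2 was the highest library for Aqp3, Aqp9 and the neutrophil markers.

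Aqp4, which in skeletal muscle sits in the fibre membrane and in brain on astrocyte endfeet, fell in KO lesions. Its gene (ENSMUSG00000024411.12) lies on chromosome 18 from 15389496 to 15410982. In WT lesions its levels were 16.7, 32.4 and 29.3 CPM, compared with 0.386, 1.99 and 9.21 CPM in KO lesions. The groups did not overlap (beside 8.74% of all genes with every KO below every WT library), and the KO lesions spread more than the WT lesions on the log2 scale. The mean was 26.1 ± 8.31 CPM in WT and 3.86 ± 4.70 CPM in KO (SD, n = 3), 6.77 times as high in WT. This was a log2 fold change of -2.76 ± 1.06 (SE; edgeR, p = 0.0406 before and 0.332 after adjustment; exact two-sided permutation test, p = 0.1). Without WT replicate 1, 2 or 3 or KO replicate 2 the call was lost, with log2 fold changes of -2.999, -2.58, -2.67 and -2.44 and adjusted p-values of 0.448, 0.415, 0.452 and 0.668. The call was kept, at a larger size, without KO replicate 3 (-4.46, edgeR, adjusted p = 0.122) and with limma voom (-4.52, adjusted p = 0.0650). It was also kept, at a smaller size, without KO replicate 1 (-2.21, edgeR, adjusted p = 0.633).

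Skeletal muscle genes were high in WT replicates 1 and 3 only, and 9 of 9 tested were past the threshold as lower in KO lesions. The highest level of Aqp4 was in WT replicate 2, where those genes summed to 6.12 CPM and Pvalb was at 0. Of the 7 genes of the complex that anchors Aqp4 to the membrane, 2 fell, beside 5.85% of all genes tested, and none rose. The median log2 fold change was -0.97, against 0.01 over all genes. Dtna, which encodes dystrobrevin alpha, had 57.6, 6.66 and 45.8 CPM in WT lesions and 4.49, 6.04 and 5.86 CPM in KO lesions (log2 fold change -2.75, edgeR, adjusted p = 0.321). Sgca, the sarcoglycan alpha subunit of striated muscle, had 36.7, 0.360 and 26.7 CPM in WT lesions and 0.159 to 0.544 CPM in KO lesions (log2 fold change -5.72, edgeR, adjusted p = 0.321). Both were highest in the libraries with muscle genes, and in WT replicate 2 Sgca was within the range of the KO lesions. The profiles nearest to Aqp4 were those of Saa2, Ppp1r1a and Ebf2, an acute-phase protein, a phosphatase inhibitor and a transcription factor of adipocyte precursors. Their root mean squares of 0.77 to 0.82 were the largest among the nearest profiles of the members.

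Aqp3, an aquaglyceroporin of basal epidermis and other epithelia, was past the threshold as lower in KO lesions, and the value rested on WT replicate 2. Its gene (ENSMUSG00000028435.9) lies on chromosome 4 from 41092722 to 41098183. WT lesions had 1.02, 57.2 and 0.769 CPM, and 0.632, 0.516 and 0.959 CPM were found in KO lesions. WT replicates 1 and 3 lay among or close to the KO lesions. The fitted log2 fold change was -4.80 ± 1.83 (SE; edgeR, p = 0.0395 before and 0.332 after adjustment; exact two-sided permutation test, p = 0.2). It was -0.35 without WT replicate 2 (edgeR, adjusted p = 0.732) and -0.95 with limma voom (adjusted p = 0.566). The call was also lost without any 1 of the KO replicates, at -5.09 to -4.62 (edgeR, adjusted p from 0.268 to 0.668), and it was kept at -5.36 and -5.39 without WT replicate 1 or 3. DESeq2 gave no p-value for Aqp3.

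The 5 markers of stratified epithelium summed to 130 CPM in WT replicate 2 and to 8.09 to 17.2 CPM elsewhere. Most of that sum was the keratin Krt5, at 99.2 CPM there and at 0.250 CPM or less in the other libraries. Krt14 and Trp63 were also highest in WT replicate 2, at 5.47 and 19.4 CPM, whereas Krt15 was highest in KO replicate 2 (7.55 CPM, against 4.95 CPM) and Krt13 was lowest in WT replicate 2 (0.810 CPM). The part of that tissue in the level of Aqp3 was not tested. The nearest profiles were those of the gene model Gm15832, an immunoglobulin kappa variable gene and the retinol dehydrogenase Rdh12, at root mean squares of 0.37, 0.47 and 0.49.

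Aqp9, an aquaglyceroporin of liver and of neutrophils, was also highest in WT replicate 2. Its gene (ENSMUSG00000032204.14) lies on chromosome 9 from 71110659 to 71168682. In WT lesions its levels were 1.24, 15.2 and 1.79 CPM, compared with 1.77, 1.23 and 1.96 CPM in KO lesions. Apart from WT replicate 2, the libraries of both groups overlapped. The difference was -1.88 ± 1.00 (SE) on the log2 scale (edgeR, p = 0.110 before and 0.399 after adjustment; exact two-sided permutation test, p = 0.6). It was 0.13 without WT replicate 2, and it passed the study's threshold without WT replicate 1 (-2.36, edgeR, adjusted p = 0.440). WT replicate 2 also had the highest summed level of 7 neutrophil genes and of 7 macrophage genes, 2352 CPM for the latter against 491 to 1215 CPM elsewhere. Their part in the level of Aqp9 was not tested. The nearest profiles were those of Igsf6, Tlr13 and A930007I19Rik, at root mean squares of 0.26, 0.26 and 0.29. Tlr13 encodes a receptor for bacterial RNA.

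Aqp7, the aquaglyceroporin through which adipocytes release glycerol, had the same mean in WT and KO lesions (6.96 CPM in both) but varied widely within the KO group. Its gene (ENSMUSG00000028427.14) lies on chromosome 4 from 41033074 to 41048139. WT lesions had 4.50, 10.04 and 6.32 CPM, and 1.05, 3.06 and 16.8 CPM were found in KO lesions. KO replicates 1 and 2 were below every WT lesion and KO replicate 3 was above every one. The log2 fold change was 0.00, with a 95% confidence interval from -2.37 to 2.37 (edgeR, adjusted p = 1.00). Without KO replicate 3 it was -1.76, past the study's threshold (edgeR, adjusted p = 0.192).

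Adipocyte markers had the same lowest and highest libraries as Aqp7. Their sum over 8 genes was 1830, 4438 and 1513 CPM in the WT lesions, compared with 908, 1480 and 6744 CPM in the KO lesions. Of these genes, 0 of 8 passed the threshold. Relative to their mean log2 level Aqp7 was at -5.004 to -3.92 in WT and -5.78 to -4.96 in KO lesions, with overlap. The nearest profiles were those of Eci3, Orm1 and Pck1, an enzyme of fatty acid breakdown, an acute-phase protein and the enzyme that feeds glycerol synthesis in fat, at root mean squares of 0.10, 0.32 and 0.34.

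The last pair of members was the least abundant per length in WT lesions. Aqp11 (ENSMUSG00000042797.10, chromosome 7 from 97724006 to 97738289) had 0.726, 1.17 and 1.03 CPM in the WT lesions, and the KO lesions lay within that range at 0.842, 1.03 and 0.875 CPM. Its log2 fold change was -0.09 with a 95% confidence interval from -0.84 to 0.67 (edgeR, adjusted p = 0.906), the narrowest interval of the tested members. Aqp2, the vasopressin-regulated channel of the kidney collecting duct (ENSMUSG00000023013.6, chromosome 15 from 99579055 to 99584547), was found with 6, 4 and 0 counts in the WT lesions, while 8, 20 and 0 counts were found in the KO lesions. It did not pass the filter on low counts. With a filter of only 1 count over all libraries its log2 fold change was 1.27 (edgeR, adjusted p = 0.697). A count of 0 allows up to 3 counts, or 0.0641 CPM in WT replicate 3 and 0.0625 CPM in KO replicate 3. These limits cover counting error only.

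To compare the makeup of the family, each gene was given as its share of the summed CPM per kb of all 9 members. Aqp5 made up 22.4%, 3.80% and 18.4% in WT replicates 1, 2 and 3 and 72.8%, 63.2% and 27.9% in KO replicates 1, 2 and 3. The groups did not overlap (difference 39.8 percentage points, exact two-sided permutation test, p = 0.1). Aqp1 made up 69.5%, 63.2% and 73.2% in WT and 17.6%, 21.1% and 64.2% in KO replicates 1, 2 and 3, with overlap (difference -34.3 points, exact two-sided permutation test, p = 0.2). The ratio of Aqp5 to Aqp1 per kb was 0.322, 0.0601 and 0.252 in WT and 4.13, 2.99 and 0.435 in KO replicates 1, 2 and 3. Aqp5 was thus the more abundant of the pair in KO replicates 1 and 2, and Aqp1 in the other 4 lesions. The third largest share belonged to Aqp8 in KO replicates 1 and 2, at 8.88% and 14.2%, and also in WT replicate 1, at 4.38%. In WT replicate 2 the second largest belonged to Aqp3, at 23.3%. The summed level of the family was 144, 134 and 107 CPM per kb in WT and 198, 164 and 153 CPM per kb in KO replicates 1, 2 and 3.

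**Figure D4:**
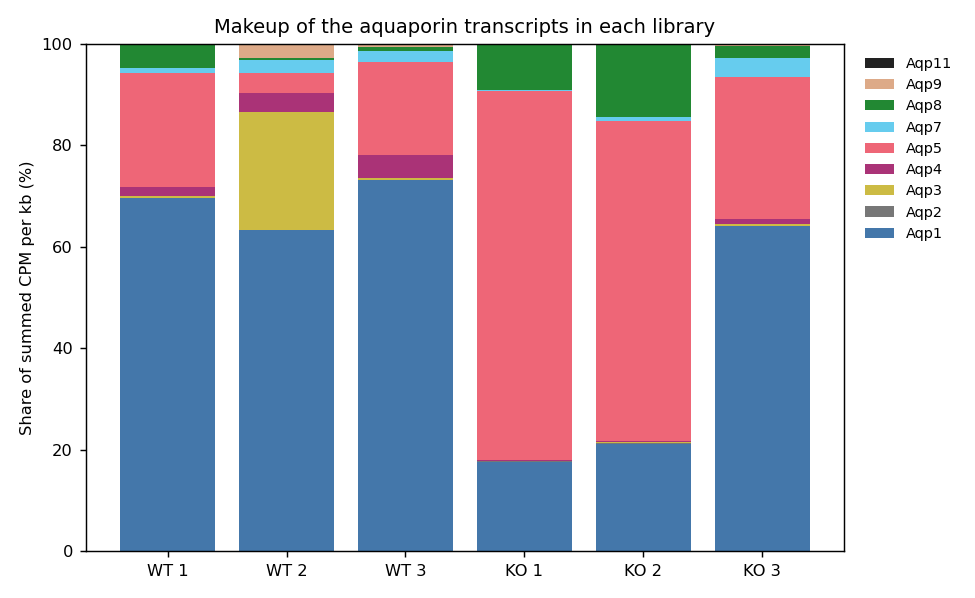
Share of each of the 9 aquaporins in their summed CPM per kb (y axis, percent) in each of the 6 libraries. Aqp1 was the largest part in all WT lesions (63.2% to 73.2%) and in KO replicate 3 (64.2%), and Aqp5 was the largest part in KO replicates 1 and 2 (72.8% and 63.2%).

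Of the other genes of the family, Mip and Aqp6 had 0 counts in all 6 libraries, which allows up to 0.0675 CPM in the shallowest. Aqp12, a channel of pancreatic acinar cells, had 70 counts (1.495 CPM) in WT replicate 3, 2 counts in KO replicate 1 and 0 in the others. WT replicate 3 was also the library with acinar genes.

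Over the 4 lists of genes that work with aquaporins, the anchoring complex included, 5 of 43 tested genes (11.6%) passed the threshold, beside 8.96% of all genes tested. None of them had an adjusted p-value under 0.05 with edgeR. Of 11 genes of glycerol handling, 1 fell, none rose and the median log2 fold change was -0.01. That gene was Gpd1, which makes glycerol 3-phosphate, with 161, 263 and 211 CPM in WT lesions and 61.2, 89.0 and 160 CPM in KO lesions (log2 fold change -1.03, edgeR, adjusted p = 0.332). Of 12 tested genes of epithelial fluid transport, 1 rose, none fell and the median was 0.26. It was Prss8, the protease that activates the epithelial sodium channel, with 13.7, 7.92 and 10.8 CPM in WT lesions and 45.9, 53.2 and 11.0 CPM in KO lesions (log2 fold change 1.76, edgeR, adjusted p = 0.328). KO replicate 3 lay among the WT lesions.

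The other 11 fluid transport genes did not pass the threshold, and of all 12 there were 8 with a positive and 4 with a negative log2 fold change. The chloride channel Cftr had 59.3, 48.7 and 64.0 CPM in WT lesions and 122, 153 and 54.6 CPM in KO lesions (0.94, edgeR, adjusted p = 0.336). The sodium, potassium and chloride cotransporter Slc12a2 had 440, 126 and 350 CPM in WT lesions and 1018, 1027 and 263 CPM in KO lesions (1.33, edgeR, adjusted p = 0.378). For both, KO replicates 1 and 2 were above every WT lesion and KO replicate 3 was not. The anion exchanger Slc26a6 had 4.44, 3.69 and 4.78 CPM in WT lesions and 2.28, 1.71 and 3.40 CPM in KO lesions, lower in every KO lesion (-0.81, edgeR, adjusted p = 0.336). The sodium channel subunits Scnn1a, Scnn1b and Scnn1g had log2 fold changes of -0.60, -0.64 and -2.88, with overlap between the groups (edgeR, adjusted p from 0.355 to 0.602). Of 13 genes of cell volume and tonicity, 1 fell, none rose and the median was -0.08. This was Akr1b3, the aldose reductase that makes sorbitol, with 142, 275 and 199.5 CPM in WT lesions and 73.3, 68.2 and 143 CPM in KO lesions (log2 fold change -1.11, edgeR, adjusted p = 0.328).

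**Figure D5:**
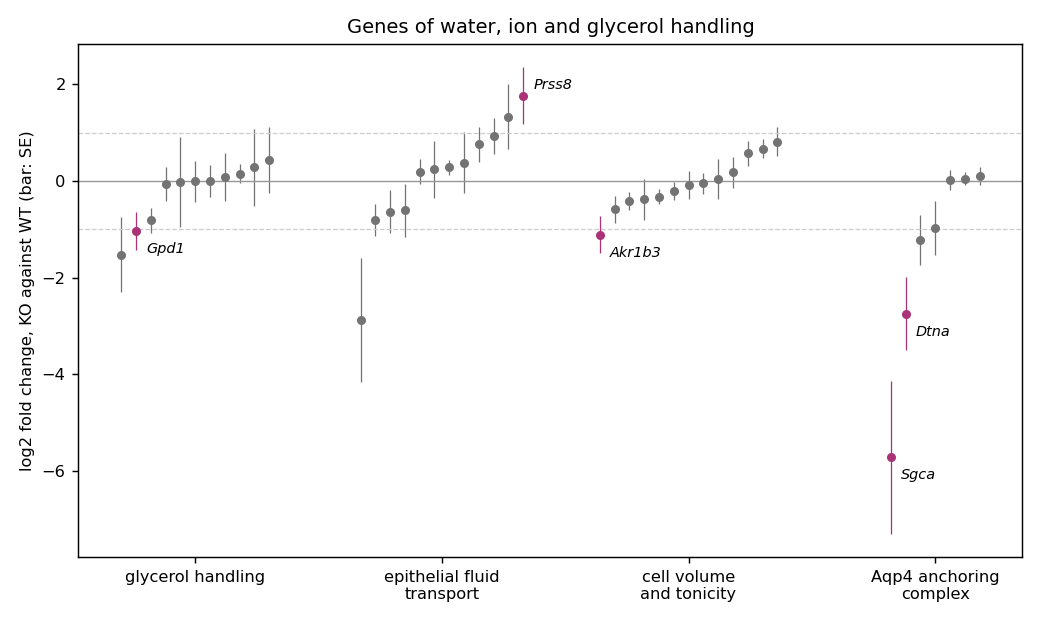
Log2 fold change of KO against WT (y axis) for the genes of each list that works with aquaporins, with 1 point for each tested gene, its SE as a bar, dashed lines at -1 and 1, and the genes past the study's threshold named. Gpd1, Akr1b3, Dtna and Sgca were lower and Prss8 higher in KO lesions, and the list medians ran from -0.97 for the Aqp4 anchoring complex to 0.26 for epithelial fluid transport.

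Dnmt3a adds methyl groups to cytosines at CpG, so the CpG content around the RefSeq starts of the aquaporins was described. Methylation was not measured in these libraries. Windows of 300 bases, from 250 before to 50 after each RefSeq start on GRCm38.p6, were used for 8 of the 9 members, all but Aqp4. Over all 32841 such windows the median was 7 CpG. Aqp5 had 46 CpG, and 98.35% of all windows had fewer. The Aqp5 window, from 99590778 to 99591077, lay almost wholly inside the gene, which starts at 99590782 in the annotation used. The run printed for Aqp5 therefore lay within the annotated gene and not upstream of it. Aqp11 had 27, Aqp3 had 21, Aqp1 and Aqp2 had 8, Aqp8 had 6, and the starts of Aqp9 and Aqp7 had 0 to 4. Sequences are printed for the 3 members most abundant in KO lesions, the 250 bases before the start for Aqp1 and Aqp8 and the 30 bases with the most CpG for Aqp5, with each CpG in capitals:
Aqp5, chr15:99590886-99590915, + strand: agCGcaCGatgCGCGCGacccagacCGcCG
Aqp8, chr7:123462044-123462293, + strand: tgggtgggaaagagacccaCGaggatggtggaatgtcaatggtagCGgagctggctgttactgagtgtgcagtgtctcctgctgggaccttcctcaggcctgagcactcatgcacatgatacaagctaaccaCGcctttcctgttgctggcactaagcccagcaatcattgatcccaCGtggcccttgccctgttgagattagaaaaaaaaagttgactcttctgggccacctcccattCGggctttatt
Aqp1, chr6:55336049-55336298, + strand: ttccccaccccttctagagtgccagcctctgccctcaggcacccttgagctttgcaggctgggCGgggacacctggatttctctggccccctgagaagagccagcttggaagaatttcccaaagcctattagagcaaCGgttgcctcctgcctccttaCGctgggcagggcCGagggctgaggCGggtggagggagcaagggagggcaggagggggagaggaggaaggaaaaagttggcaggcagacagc
The printed run of Aqp5, picked for its CpG, held 7 CpG in 30 bases. Those of Aqp8 and Aqp1, not picked in this way, held 5 each in 250 bases, so the runs cannot be compared in density. Both strands were also searched for the full estrogen response element, GGTCA and its reverse complement with 3 bases between them, present in 0.0700% of all windows. The progesterone response element was searched as GNACA and its reverse complement with 3 bases between them, present in 0.475%. Neither was found in the windows of these 8 members. The single GGTCA of the estrogen element, present in 40.5% of all windows, was found in those of Aqp5, Aqp7, Aqp9 and Aqp11. A match or its absence describes these letters only.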

How the data were processed

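Polyadenylated RNA of 3 WT and 3 KO lesions was sequenced from stranded libraries. The authors deposited unnormalised counts, the whole number of reads on each of 56884 genes. Reads were trimmed and counted by the authors on the Galaxy platform. The methods name GRCm38, while the submitters' processing notes list GRCm39 with Trimmomatic, featureCounts and DESeq2. The aligner, the annotation release and the strand setting are not given in the sources used here. Symbols, coordinates and exon lengths came from GENCODE M21 (GRCm38), where 51948 identifiers were found without their version and 35 with the same version, so coordinates and lengths may differ from the models counted. Unmatched identifiers held 3.04% to 3.56% of counts. No member shared exon bases with another gene there.

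Genes were filtered by filterByExpr and scaled by TMM, and KO was tested against WT with the quasi-likelihood test of edgeR 4.0.16 (R 4.3.3) over 18177 genes, without covariates. The biological coefficient of variation was 44.2%. Adjusted p-values are Benjamini-Hochberg values over all tested genes. Alternatives were DESeq2 1.42.0 (size factors, and its Wald test), limma 3.58.1 voom with quality weights, upper quartile scaling, filters of 1 count in all or 10 in every library, the replicate number as a block, and each library left out. Counts carry no molecular identifiers, so intervals on counts cover counting error only, and replicates are lesions of separate donors.

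Text names all members, the genes of the role lists past the study's threshold, and for each member with a mean of at least 1 CPM the 3 genes with the smallest root mean square difference of centred log2 CPM (prior count 2). Other genes of the lists named for their values, Cftr, Slc12a2, Slc26a6, the Scnn1 genes and the markers, were chosen after their values were seen. Members and lists were chosen with earlier results of these data known.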

Additional observations from a re-analysis of the deposited data

How the results depend on the processing

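With 3 lesions a group, and libraries that carry genes of muscle, pancreas, fat or neutrophils, the calls moved with the method and with single libraries. Of 102 values of single members under the alternatives, 72 kept direction and side of the threshold, 12 lost it, 7 gained it and 11 changed direction. DESeq2's Wald test called 2 members higher (Aqp5 and Aqp8), 1 lower (Aqp4) and 1 past the adjusted threshold (Aqp5). Limma voom called 2 members higher (Aqp5 and Aqp8) and 2 lower (Aqp1 and Aqp4, without Aqp3). Of all genes, 564 higher and 1064 lower (3.10% and 5.85% of 18177) were reported. DESeq2 gave 842 and 1839 (2.82% and 6.17% of 29812), and the filter of 1 count 792 and 1652 (2.61% and 5.45% of 30336). Voom gave 855 and 1523 (4.70% and 8.38% of 18177). DESeq2 changed both the test and the number of genes, and their parts were not tested. Genes past the adjusted threshold numbered 1 as reported, 1077 with DESeq2, 12 with voom and 398 without WT replicate 2. With each library left out, 0 to 2 members were higher, 0 to 3 lower and 0 past the adjusted threshold, and 280 (without KO replicate 2) to 1021 (without KO replicate 3) of all genes were higher and 551 (without KO replicate 1) to 1650 (without KO replicate 3) lower.

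Same-numbered WT and KO libraries did not deviate together (correlations 0.03, -0.15 and -0.20), and correlations of differently numbered ones ran from -0.15 to 0.23. So few values cannot show whether the numbers pair the lesions. With the replicate number as a block, 1 member (Aqp4) was lower, Aqp3 had a log2 fold change of -1.84 (edgeR, adjusted p = 0.734), and 372 of all genes were higher and 573 lower.

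The direction changed for 3 members near 0 or resting on 1 library, and the cause was not tested. Aqp7 was at -0.0022 with DESeq2's size factors, -0.0021 with the filter of 10 counts, -1.42 with voom, -0.88 with the block, and ran from -1.76 (without KO replicate 3) to 0.52 (without KO replicate 1) with each library left out. Aqp11 was at 0.010 with upper quartile scaling, which moved the median of all genes from 0.01 to 0.11, and 0.025 with voom, and ran from -0.26 to 0.067 with each library left out. Aqp9 ran from -2.36 (without WT replicate 1) to 0.13 (without WT replicate 2).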
